A study of Solanum lycopersicum x Solanum pennellii and Solanum lycopersicum with 17 samples.

Results

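The carpels of the tomato introgression line IL-1_1 were compared with those of the cultivar M82, using the 4 arrays of the samples titled IL-1_1 and the 6 arrays of the samples titled as the M82 seed control, out of 17 arrays in the series. IL-1_1 plants carry a piece of chromosome 1 of the wild relative Solanum pennellii in the genetic background of M82, which carries no such piece and is labelled the parental line. The design text speaks of hybrids, and the sources used here do not say whether the plants were homozygous for the segment. All plants were greenhouse-grown and had the same treatment, and the carpels of both groups were taken 7 days after pollination. The other introgression lines of the series, IL-1_4 with 3 arrays and IL-2_3 with 4, have wild segments of their own and serve here only to show where IL-1_1 stands apart. No label says that replicates came from separate plants, so the tests measure the spread between these samples, which may be technical.

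An introgression line isolates a small part of a wild genome, so that differences from the recurrent parent can be tied to the line as a whole. After pollination the carpel wall and the young seeds enter a phase of cell division and then expansion, which auxin and gibberellin promote and which depends on imported sugar. Ethylene, jasmonate and abscisic acid regulate the stress side of the same tissue and, much later, ripening. Wild and cultivated alleles differ in sequence, so on an array designed on cultivated tomato a lower signal in the line can come from less transcript or from probes that match the wild allele less well. The deposited values do not tell these apart, and the same holds between fewer cells of a type and less RNA per cell.

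Each value is the log2 intensity of a probe set, a group of short probes for 1 transcript. All 10101 probe sets other than array controls were tested with limma, and a probe set was called where its adjusted p was under 0.05. Names were available for 909 of them (9.0%), with 802 distinct symbols, and the remaining 9192 are given by their probe set ID. Array medians lay between 10.015 and 10.031 in IL-1_1 and between 9.970 and 10.045 in M82. Pairs of arrays correlated at 0.958 to 0.989 within IL-1_1, at 0.950 to 0.996 within M82 and at 0.913 to 0.980 between them, and no arrays were identical. M82 replicate 1 correlated with the IL-1_1 arrays at 0.970 to 0.979 and with the other M82 arrays at 0.950 to 0.981.

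Carpel markers were bright in both groups. The carpel identity gene TAGL1 had a mean of 10.94 ± 0.08 in IL-1_1 (SD over 4 arrays) and of 10.96 ± 0.14 in M82 (SD over 6 arrays), and the ovule gene AGL11 averaged 11.74 ± 0.30 in IL-1_1 and 11.35 ± 0.46 in M82. Of 5 carpel and young fruit markers only fsm1 was called, while 4 were called higher without M82 replicate 1, and none was called without any other single array apart from IL-1_1 replicate 2 and M82 replicate 6. Averaged over that list, arrays ran from 11.35 to 11.90 in IL-1_1 and from 9.93 to 11.74 in M82. None of 5 pollen markers, 1 stigma marker, 3 petal and stamen probe sets, 9 green tissue markers or 11 ripe fruit probe sets was called. The ripe fruit list held 1 rise and 1 fall without M82 replicate 1 or 6. The petal and stamen list held 1 rise without IL-1_1 replicate 2 or M82 replicate 1. The pollen receptor kinase genes PRK1, PRK2 and PRK3 were near the bottom of the scale in both groups, and PRK2 averaged 4.01 ± 0.10 in IL-1_1 and 3.97 ± 0.09 in M82. LAT61, another gene of that list, was bright in both, at 12.42 ± 0.26 in IL-1_1 and 12.35 ± 0.21 in M82. The ripening regulator RIN averaged 4.15 ± 0.10 in IL-1_1 and 4.03 ± 0.17 in M82. Other ripe fruit probe sets were bright: means in that list reached 13.89 in IL-1_1 and 13.94 in M82.

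Array signal in IL-1_1 differed from M82 at 1233 probe sets, which is 12.2% of those tested. Of these 646 (6.40%) were higher in IL-1_1 and 587 (5.81%) lower, while the median log2 change over all probe sets was -0.025. Among the probe sets with a symbol 131 were called, 81 higher and 50 lower. They belong to 126 genes and make up 14.4% of the named probe sets, against 12.0% of those without a name.

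Rises and falls differed in form. The called rises had a median size of 0.830 on the log2 scale and the falls of 0.581. Changes of over 4-fold numbered 57 rises and 35 falls. In the 35 falls every IL-1_1 array lay below every M82 array, and in 31 of them the gap between the groups exceeded 1 log2 unit. Only 36 of the 57 rises were free of overlap, and 6 had such a gap. The probe sets behind the large rises varied widely among M82 arrays, with a median SD of 0.617 in IL-1_1 and 1.14 in M82. For the large falls the median SD was 0.294 in IL-1_1 and 0.331 in M82.

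**Figure D1:**
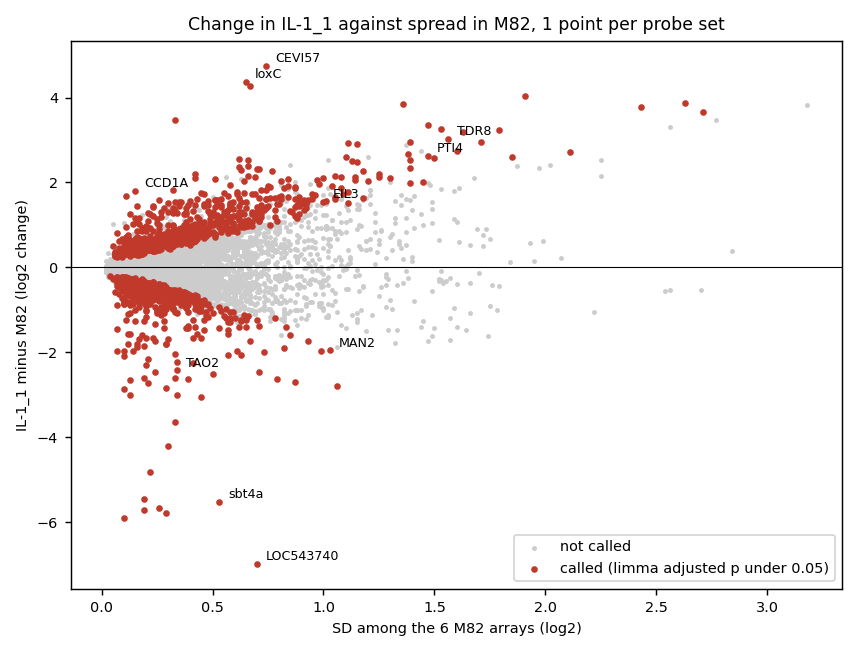
Log2 change in IL-1_1 relative to M82 (vertical axis) against the SD among the 6 M82 arrays (horizontal axis), 1 point per probe set, with called probe sets in red. LOC543740 and sbt4a, the deepest falls with a symbol, sit at M82 SDs of 0.70 and 0.53. The rises of TDR8 and PTI4 sit farther right, where the M82 SD is over 1 log2 unit. Not all rises do: CEVI57, loxC and CCD1A sit at 0.74, 0.65 and 0.15.

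A small set of probe sets separated the line from M82 completely. In 42 (0.416% of those tested) every IL-1_1 array was more than 1 log2 unit below the lowest M82 array, and in 7 (0.0693%) every IL-1_1 array was more than 1 above the highest. Without overlap of any size there were 431 below (4.27%) and 307 above (3.04%). The 42 falls ran from -6.97 to -1.44, with a median of -2.55, and 41 of them were also more than 1 log2 unit below every array of IL-1_4 and IL-2_3. For the same 42, the lines IL-1_4 and IL-2_3 had median log2 changes of 0.05 and 0.01 from M82. Of the 42, 23 had an IL-1_1 mean under 7.985, the 25th percentile of IL-1_1 means, while 4 had an M82 mean under that value. Leaving out an array can only keep or widen a gap, so these counts could rise but not fall. The count below by more than 1 ran from 42 to 47 over the 10 arrays left out in turn. The count above ran from 7 to 21: it was 12 without IL-1_1 replicate 2, 17 without IL-1_1 replicate 3 and 21 without M82 replicate 1.

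Only 5 of the 42 deep falls carry a symbol. LOC543740, a gene without a descriptive name here, read 5.08, 5.0, 5.09 and 4.96 in the IL-1_1 arrays, against 10.89 at the lowest, 11.94 at the median and 12.77 at the highest among M82 arrays. The IL-1_1 arrays were nearly equal and lay far under all M82 arrays. Its log2 change was -6.97 ± 0.38 (SE; limma adjusted p = 4.76e-09), and IL-1_4 and IL-2_3 averaged 12.09 and 12.80. Its IL-1_1 mean of 5.03 lies under 5.082, the 10th percentile of IL-1_1 means, so the size of the change in signal may be understated. The subtilisin-like protease gene sbt4a read 3.96, 3.88, 4.05 and 3.85 in IL-1_1, against 8.64, 9.69 and 9.90 (lowest, median and highest) in M82. Its IL-1_1 levels lie close to the lowest values of any array, 3.307 to 3.601, and its change in signal of -5.52 ± 0.27 (limma adjusted p = 9.91e-10) may be understated for the same reason. Whether the probes of either gene match the wild allele was not tested, so neither change can be read as one of transcript alone.

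TAO2 and CCD1B were less dim in the line. TAO2, an aldehyde oxidase of the molybdenum cofactor family, read 8.20, 7.93, 7.70 and 8.49 in IL-1_1, against 9.93, 10.54 and 10.98 in M82 (lowest, median, highest). CCD1B, a carotenoid cleavage dioxygenase that releases volatile apocarotenoids, read 8.47, 8.75, 7.83 and 8.76 in IL-1_1, against 10.51, 10.74 and 11.05 in M82. Neither gene's groups overlap, and the signal of TAO2 was 5.35-fold and that of CCD1B 4.90-fold lower in IL-1_1 (limma adjusted p = 1.7e-07 for each). For these genes too the match of the probes to the wild allele was not tested. The formin gene formin-I2I, whose protein family nucleates actin filaments, read 5.33, 5.53, 5.39 and 5.43 in IL-1_1, against 7.0, 7.66 and 8.20 in M82. It was 4.76-fold lower in IL-1_1 (limma adjusted p = 6.64e-07), although its IL-1_1 mean of 5.42 is also near the bottom of the scale. The fold in signal may be understated, and the match of its probes to the wild allele was not tested. Its 4 IL-1_1 arrays were tighter (SD 0.09) than the M82 arrays (SD 0.41).

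**Figure D2:**
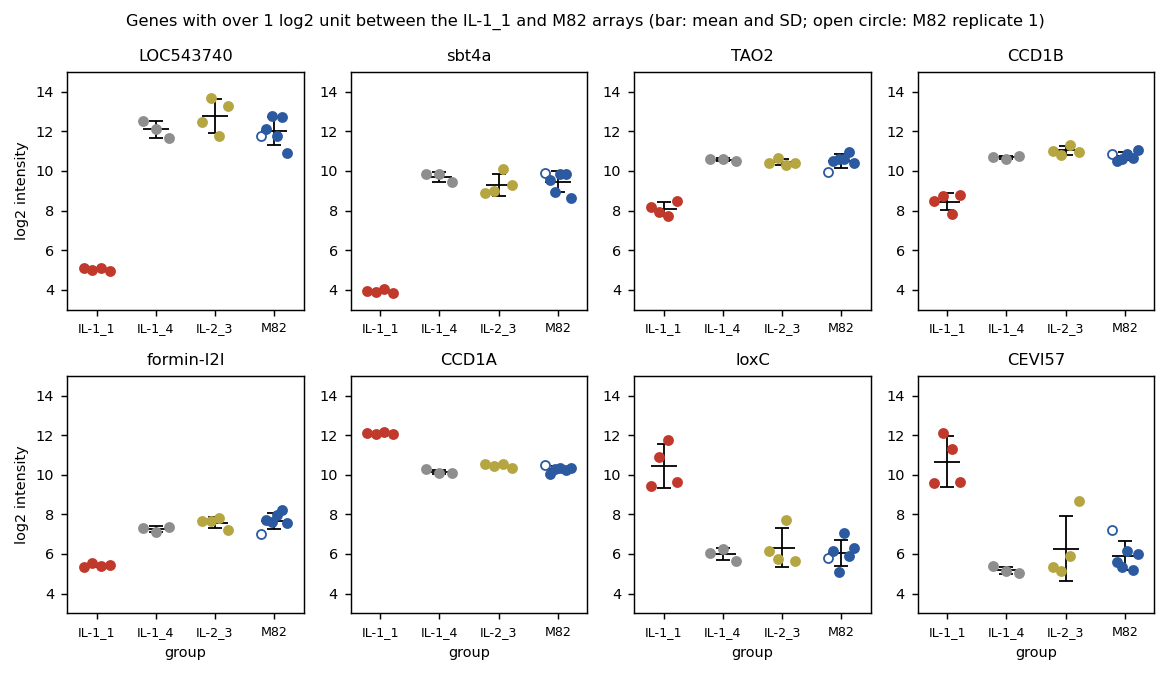
Log2 intensity per array (vertical axis) in IL-1_1, IL-1_4, IL-2_3 and M82 for 8 named genes with more than 1 log2 unit between the IL-1_1 and M82 arrays, with bars for mean and SD. In the first 5 panels all IL-1_1 points lie below every other array. In the CCD1A, loxC and CEVI57 panels all IL-1_1 points lie above every other array, and loxC and CEVI57 split into a higher and a lower pair of IL-1_1 arrays.

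Most of the deep falls have no name. The largest were those of Les.3091.1.A1_at, Les.4203.1.A1_at, Les.745.1.A1_at, Les.2320.1.A1_at and LesAffx.67882.1.S1_at, which fell by 5.89, 5.79, 5.71, 5.65 and 5.46 on the log2 scale. Les.3091.1.A1_at read 6.84, 7.16, 7.43 and 7.59 in IL-1_1, against 13.04, 13.12 and 13.30 in M82 (lowest, median, highest), a fold of 59.4 (limma adjusted p = 1.11e-14). Les.745.1.A1_at read 5.62, 5.83, 5.61 and 5.97 in IL-1_1, against 11.19, 11.47 and 11.74 in M82, a fold of 52.3 (limma adjusted p = 1.11e-14). All 5 were bright in M82 and in both other lines, with means of 10.58 or more in IL-2_3 and 10.63 or more in IL-1_4, and dim in IL-1_1. The gaps between the lowest M82 array and the highest IL-1_1 array were 4.74 to 5.45. How well these probes match the wild alleles was not tested.

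The rises with a wide gap include 3 named genes. CCD1A, the paralogue of CCD1B with the same enzymatic activity, read 12.13, 12.04, 12.15 and 12.05 in IL-1_1, against 10.06, 10.30 and 10.50 in M82 (lowest, median, highest). Its arrays were tight in both groups, with SDs of 0.06 in IL-1_1 and 0.15 in M82, and its signal was 3.49-fold higher in IL-1_1 (limma adjusted p = 5.98e-10). Whether the probe sets of CCD1A and CCD1B share signal was not tested. loxC encodes a lipoxygenase that feeds the synthesis of fruit volatiles, and it read 9.41, 10.92, 11.78 and 9.62 in IL-1_1, against 5.08, 6.03 and 7.07 in M82. CEVI57, of the defence list, read 9.57, 12.13, 11.32 and 9.64 in IL-1_1, against 5.18, 5.79 and 7.22 in M82. Both rose far beyond the M82 range, by 4.37 ± 0.50 for loxC (limma adjusted p = 4.08e-05) and 4.75 ± 0.66 for CEVI57 (0.000326). In both, replicates 2 and 3 of IL-1_1 were more than 1 log2 unit above replicates 1 and 4.

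Of the unnamed rises, LesAffx.19291.1.S1_at was the most separated. It read 12.18, 11.85, 11.52 and 11.94 in IL-1_1, against 6.50, 7.65 and 8.51 in M82 (lowest, median, highest), a fold of 19.5 (limma adjusted p = 3.28e-08). Les.5789.1.S1_at read 8.02, 9.67, 9.19 and 7.93 in IL-1_1, against 4.81, 5.26 and 5.65 in M82, a fold of 11.2 (limma adjusted p = 8.71e-07). Its higher pair of IL-1_1 arrays were again replicates 2 and 3. Les.4317.1.S1_at averaged 12.45 ± 0.48 in IL-1_1 and 8.41 ± 1.91 in M82, and Les.2084.1.S1_at averaged 9.63 ± 1.03 in IL-1_1 and 6.38 ± 1.53 in M82. LesAffx.70768.1.S1_at averaged 11.71 ± 0.47 in IL-1_1 and 7.83 ± 2.63 in M82. All 3 were called (limma adjusted p = 0.0146, 0.0236 and 0.0447), but their M82 arrays reached within 0.25 log2 units of the lowest IL-1_1 array. LesAffx.70768.1.S1_at lost its call when any 1 of 8 arrays was left out, all but M82 replicates 1 and 6 (adjusted p up to 0.114), and Les.2084.1.S1_at lost it without IL-1_1 replicate 1 or 4 or M82 replicate 2, 4 or 5 (up to 0.0847).

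The M82 arrays were not equally far from IL-1_1. M82 replicate 1 was the M82 array nearest to IL-1_1 in 488 of the 646 called rises (75.5%), while over all probe sets it was the highest M82 array in 35.1%. In the called falls it was nearest in 294 of 587 (50.1%), against 27.3% over all probe sets. It was nearest in 47 of the 57 rises over 4-fold, but in 9 of the 35 falls over 4-fold. On the side of the line, IL-1_1 replicates 1 and 4 were the arrays farthest from M82 in 44.9% and 37.0% of the rises, against 30.7% and 25.1% over all probe sets.

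The number of calls followed those arrays. Leaving out M82 replicate 1 gave 3079 calls, and all 1233 calls were among them. Leaving out IL-1_1 replicate 1 gave 469 and IL-1_1 replicate 4 gave 421. Leaving out M82 replicates 2, 3, 4 or 5 gave 547, 725, 595 or 673. A core of 341 probe sets, 152 higher and 189 lower, was called whichever of the 10 arrays was left out, and 36 of them carry a symbol, 19 higher and 17 lower. Every deep fall and wide-gap rise named above belongs to that core.

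**Figure D3:**
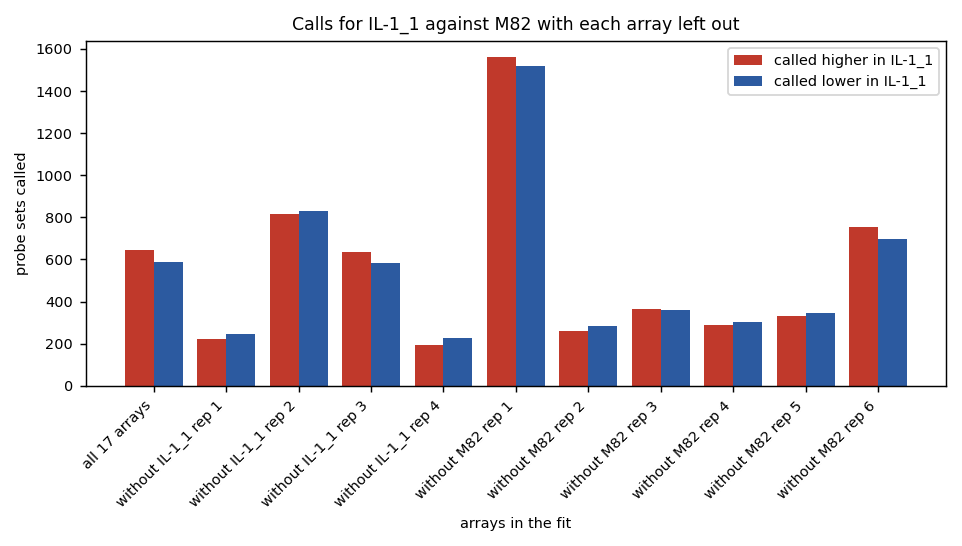
Number of probe sets called higher (red) and lower (blue) in IL-1_1 than in M82 (vertical axis) with all 17 arrays and with each IL-1_1 or M82 array left out (horizontal axis). The bars reach 1561 and 1518 without M82 replicate 1 and drop to 195 and 226 without IL-1_1 replicate 4, against 646 and 587 with all arrays.

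Several genes of primary metabolism and signalling changed modestly but in every leave-out fit. PP2Ac2, a catalytic subunit of protein phosphatase 2A, read 10.93, 10.37, 10.52 and 10.62 in IL-1_1, against 11.16, 11.21 and 11.39 in M82 (lowest, median, highest). The groups do not overlap, and it fell by 0.63 ± 0.09 (limma adjusted p = 0.000601). MAPKKKalpha, a kinase that in tomato promotes cell death at the head of a MAP kinase cascade, read 10.50, 10.21, 10.24 and 10.55 in IL-1_1, against 9.42, 9.66 and 10.03 in M82. It rose by 0.68 ± 0.12 (limma adjusted p = 0.00243), also without overlap. It was the single call among 19 probe sets of MAP kinase and calcium signalling, whose median change was -0.03.

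PMM, the phosphomannomutase on the route to GDP-mannose, ascorbate and cell wall mannose, fell at all 3 of its probe sets. The changes were -0.61 ± 0.13, -0.73 ± 0.15 and -0.85 ± 0.23 (limma adjusted p = 0.0110, 0.00800 and 0.0298). The middle one read 9.0, 9.20, 9.03 and 9.23 in IL-1_1, against 9.37, 9.86 and 10.36 in M82 (lowest, median, highest), with no overlap. The first of them missed separation by 0.02 log2 units and was not called with only the IL-1_1 and M82 arrays fitted (0.0536), and the last overlapped and lost its call without IL-1_1 replicate 1 or 4 or M82 replicate 2, 3, 4 or 5 (up to 0.107). Each was also called lower in IL-1_1 than in the mean of the other lines, with differences of -0.63, -0.71 and -0.89. Of the 13 genes with several probe sets and at least 1 call, all had the same sign at every probe set. Some of these changes were near 0, such as -0.03 for LOC606710 and 0.04 for LOC543955. Only PMM, BMY3 and LOC778362 were called at each of their probe sets.

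Among the nucleases, TBN1, a bifunctional nuclease that cuts RNA and single-stranded DNA, read 10.45, 8.92, 8.87 and 8.32 in IL-1_1, against 6.99, 7.30 and 8.11 in M82 (lowest, median, highest). It rose by 1.74 ± 0.35 (limma adjusted p = 0.00782) with no overlap and kept its call in every leave-out fit. Its other, dimmer probe set had a difference of 0.78 and was not called (0.0597). RNALE, a secreted ribonuclease that phosphate starvation induces in tomato cells, read 11.11, 9.58, 10.21 and 9.57 in IL-1_1, against 6.95, 8.67 and 9.49 in M82. It rose by 1.70 ± 0.42 (limma adjusted p = 0.0205) and lost its call without IL-1_1 replicate 1 (0.0801). Another phosphate starvation gene, TPSI1, picked after its values were seen, averaged 9.11 ± 0.72 in IL-1_1 and 7.77 ± 0.41 in M82 (limma adjusted p = 0.0134; up to 0.0529 without IL-1_1 replicate 1 or 4). The phosphate transporter genes PT1 and PT2 were not called, at 0.63 and -0.44.

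Genes listed only by number made up part of the core. LOC543856 read 10.34, 10.44, 9.97 and 10.77 in IL-1_1, against 8.30, 8.75 and 9.73 in M82 (lowest, median, highest), and rose by 1.58 ± 0.26 (limma adjusted p = 0.00154). Its second probe set had a difference of 0.36 and was not called (0.136). LOC778238 fell by 0.70 ± 0.12, LOC543681 by 0.66 ± 0.10 and LOC543715 by 0.80 ± 0.17 (limma adjusted p = 0.00163, 0.000462 and 0.0103), all without overlap. In contrast LOC778362, with changes of 2.95 and 3.35 at its 2 probe sets, and LOC544264, with 2.06, lost their calls with several single arrays left out. These were IL-1_1 replicates 1 and 4 and M82 replicates 2, 4 and 5 for each, joined for LOC778362 by M82 replicate 3 and IL-1_1 replicate 2, and at its stronger probe set by IL-1_1 replicate 3 (adjusted p up to 0.103 and 0.0933). The same held for yfe37, at -1.24, without IL-1_1 replicate 1 or 4 or M82 replicate 2, 3, 4 or 5 (up to 0.0969). In yfe37 the IL-1_1 arrays were split: replicates 2 and 3 read 13.92 and 13.81, close to the M82 median of 14.21, and replicates 1 and 4 read 11.63 and 12.40.

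For each pathway list the count of calls stands against the 12.2% of all probe sets that were called. In hormone and stress signalling, the genes of ethylene synthesis showed no call among 15 probe sets, with a median change of 0.19. ACO6, whose ACC oxidase makes ethylene, has 3 probe sets, with differences of 2.52 to 3.47 and no call (limma adjusted p = 0.0557 to 0.0918). Their M82 arrays ran wide: at the probe set with the largest change IL-1_1 read 12.02, 10.42, 11.31 and 11.39, and M82 4.84, 7.79 and 10.87 (lowest, median, highest). Without M82 replicate 1 there were 4 calls in the ethylene synthesis list, and without M82 replicate 6 there were 3. EIL3, an EIN3-like transcription factor of ethylene signalling, was the single call among 15 receptor and signalling probe sets. Of these 15, 13 had a positive change (median 0.23), and 5 rises were called without M82 replicate 1. EIL3 read 13.12, 12.36, 12.81 and 13.10 in IL-1_1, against 10.35, 10.96 and 12.75 in M82, a change of 1.55 ± 0.44 (limma adjusted p = 0.0364). M82 replicate 1 lay among the IL-1_1 arrays, and the call ended without IL-1_1 replicate 1, 3 or 4 or M82 replicate 2, 3, 4 or 5 (up to 0.105).

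The ERF and DREB transcription factors split. PTI4, an ERF that binds the Pto resistance kinase, read 11.33, 11.77, 11.90 and 11.48 in IL-1_1, against 7.70, 8.44 and 10.89 in M82 (lowest, median, highest). ERF4 read 10.39, 10.36, 10.29 and 10.33 in IL-1_1, against 6.34, 7.29 and 9.61 in M82. In both, the line was uniform and M82 was divided, with replicates 1 and 6 near the line and 3 of the other 4 arrays more than 2 log2 units below replicate 1. They rose by 2.63 ± 0.67 (limma adjusted p = 0.0240) and 2.58 ± 0.68 (0.0265). ERF-H1 went the other way: it read 8.30, 8.70, 7.79 and 8.46 in IL-1_1, against 8.91, 9.75 and 10.42 in M82, a fall of 1.42 on the log2 scale (limma adjusted p = 0.00616). The remaining 12 of 15 probe sets were not called, and the median of the list was 0.21. The rises of PTI4 and ERF4 were lost without IL-1_1 replicate 1 or 4 or M82 replicate 2, 4 or 5 (up to 0.0723), while ERF-H1 was called in every leave-out fit.

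**Figure D4:**
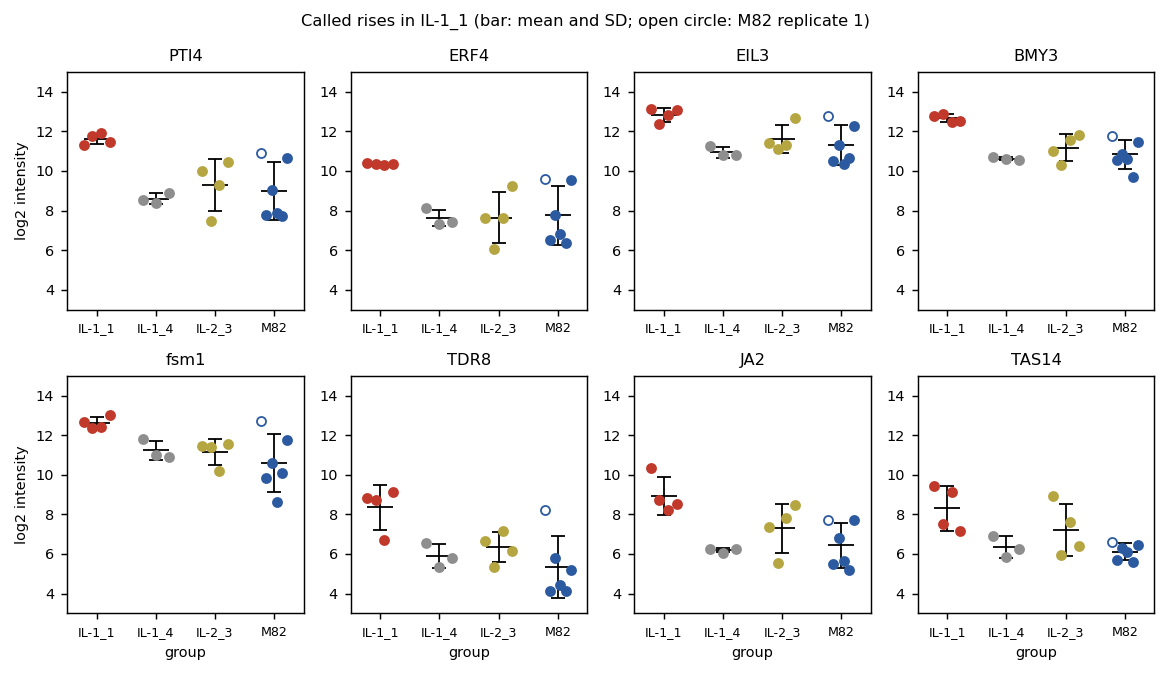
Log2 intensity per array (vertical axis) in IL-1_1, IL-1_4, IL-2_3 and M82 for 8 called rises, with bars for mean and SD and M82 replicate 1 as an open circle. M82 replicate 1 is the highest M82 array in all 8 panels. M82 spreads widely in every panel but that of TAS14, where its SD is 0.42 and IL-1_1 is spread.

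Jasmonate, oxylipin and wound genes held 4 called rises and no called fall among 26 probe sets, with 13 positive changes, 13 negative ones and a median of 0.03. The called share of 15.4% was near the 12.2% over all probe sets. Besides loxC they were JA2, twi1 and ALPHA-DOX2. JA2, a NAC transcription factor, read 10.35, 8.71, 8.21 and 8.50 in IL-1_1, against 5.19, 6.22 and 7.72 in M82 (lowest, median, highest). It rose by 2.51 ± 0.62 (limma adjusted p = 0.0204). The wound-induced glucosyltransferase gene twi1 averaged 10.07 ± 1.33 in IL-1_1 and 7.12 ± 1.71 in M82 (limma adjusted p = 0.0294), but IL-1_4 was as high, at 10.09, and IL-2_3 averaged 8.40. ALPHA-DOX2, an alpha-dioxygenase of fatty acid oxidation, rose by 0.57 ± 0.17 (0.0437). The allene oxide synthase gene AOS, at the entry to jasmonate synthesis, had a difference of -0.97 and was not called (0.0530). Without IL-1_1 replicate 1 the list kept 1 call and without M82 replicate 2 also 1, while without M82 replicate 1 it had 7 rises and 1 fall. JA2 was lost in both of these fits (up to 0.0795), twi1 and ALPHA-DOX2 in both and also without IL-1_1 replicate 4 or M82 replicate 3, 4 or 5, and twi1 without IL-1_1 replicate 3 (up to 0.0912 and 0.144).

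Defence genes had 4 called rises, no called fall and 18 positive changes among 23 probe sets, with a median of 0.56. Over all probe sets 6.40% were called higher and 12.2% in all. Without IL-1_1 replicate 2 there were 8 rises, without M82 replicate 1 there were 8 rises and 1 fall, and without M82 replicate 6 there were 7 rises. Beside CEVI57 these were the receptor genes Ve1 and Ve2, of the Verticillium resistance locus, and the chitinase gene CHI14. Ve1 read 5.73, 5.10, 5.70 and 7.14 in IL-1_1, against 4.57, 4.79 and 4.89 in M82 (lowest, median, highest). The M82 arrays were tight and the line was spread, with replicate 4 highest, and the change was 1.17 ± 0.27 (limma adjusted p = 0.0159). Ve2 averaged 7.97 ± 0.96 in IL-1_1 and 6.42 ± 0.48 in M82 (0.0172), and CHI14 7.36 ± 0.42 in IL-1_1 and 6.38 ± 0.42 in M82 (0.0143). The pathogenesis-related gene PR1b1 was spread among IL-1_1 arrays at 1 of its probe sets, 6.72 ± 3.20 in IL-1_1 and 4.64 ± 0.63 in M82, and was not called (0.149). Ve2 and CHI14 lost their calls without IL-1_1 replicate 1 or 4 (up to 0.0554 and 0.0621), which left 2 calls in the list, and Ve1 kept its call in each leave-out fit but not with only the IL-1_1 and M82 arrays fitted (0.0688). Ve1 and Ve2 are closely related genes and their probe sets may share signal.

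In abscisic acid and water stress, 14 of 17 probe sets had a positive change (median 0.35) and 2 were called higher. TAS14, a dehydrin that protects cells under water loss, read 9.42, 7.52, 9.15 and 7.17 in IL-1_1, against 5.57, 6.19 and 6.6 in M82 (lowest, median, highest). All IL-1_1 arrays were above M82, in a higher pair of replicates 1 and 3 and a lower pair of 2 and 4, and the change was 2.2 ± 0.54 (limma adjusted p = 0.0205). AREB1, a bZIP factor of the abscisic acid response, read 9.85, 8.84, 8.58 and 8.94 in IL-1_1, against 7.23, 7.76 and 8.75 in M82, a change of 1.21 ± 0.31 (limma adjusted p = 0.0240), and its lowest array lay under M82 replicate 1. Without IL-1_1 replicate 1 there were 0 calls in the list, TAS14 standing at 0.0798. AREB1 was lost without IL-1_1 replicate 1 or 4 or M82 replicate 2, 4 or 5 (up to 0.0896).

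Auxin genes had 1 called rise among 16 probe sets (median 0.06). IAA7, an Aux/IAA repressor of auxin response, read 8.23, 8.54, 7.99 and 8.77 in IL-1_1, against 7.15, 7.32 and 7.56 in M82 (lowest, median, highest). The groups do not overlap, the change was 1.02 ± 0.19 (limma adjusted p = 0.00472), and it was called in every leave-out fit. A second, dim probe set of IAA7 had a difference of 0.26 and was not called (0.0508). Of 11 gibberellin probe sets 1 was called, GRAS6, of the GRAS family that includes the DELLA repressors, which rose by 0.78 ± 0.19 (limma adjusted p = 0.0204) and was lost without IL-1_1 replicate 1 or 4 (up to 0.0777).

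Cell wall genes, which loosen or remodel the wall of the expanding fruit, had 4 called rises and 4 called falls among 55 probe sets, and a median change of -0.12. The called share of 14.5% was near the 12.2% over all probe sets. The xyloglucan endotransglycosylase gene tXET-B2 read 11.71, 9.93, 9.56 and 10.08 in IL-1_1, against 7.26, 7.50 and 8.93 in M82 (lowest, median, highest). It was 5.88-fold higher without overlap (limma adjusted p = 0.00613) and kept its call in every leave-out fit. XTH3, of the same enzyme family, read 11.04, 10.22, 8.87 and 11.07 in IL-1_1, against 7.24, 8.02 and 8.96 in M82, and was 4.91-fold higher (limma adjusted p = 0.0236). There IL-1_1 replicate 3 lay just under M82 replicate 1, and the other 3 IL-1_1 arrays were clear of M82. The remaining xyloglucan genes XTH1, XTH5, XTH6 and XTH7 were not called, with differences of -0.83, 0.41, -0.90 and -0.19. The beta-galactosidase gene TBG2 rose by 0.62 ± 0.16 (limma adjusted p = 0.0259), and TBG3, picked after its values were seen, by 1.02 ± 0.30 (0.0393).

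The falls in the cell wall list were of enzymes acting on pectin and mannan. PME2.1, a pectin methylesterase of fruit, read 8.98, 8.82, 8.10 and 8.29 in IL-1_1, against 9.05, 9.55 and 10.19 in M82 (lowest, median, highest). The groups just failed to touch, and it fell by 1.02 ± 0.23 (limma adjusted p = 0.0132). Pectinesterase genes PE1 and PMEU1, of which the second was picked after its values were seen, fell by 0.39 ± 0.10 and 0.31 ± 0.09 (limma adjusted p = 0.0289 and 0.0336). MAN2, a mannanase of the endosperm around the seed, averaged 6.51 ± 0.75 in IL-1_1 and 8.46 ± 1.03 in M82, and fell by 1.95 ± 0.59 (limma adjusted p = 0.0434). The other seed and endosperm markers EXPA4, EXPA8 and EXPA10, which are expansins, had differences of 0.25, 0.00 and -0.57 and were not called, and the mean of the 4 markers ran from 7.11 to 7.45 over IL-1_1 arrays and from 7.35 to 8.24 over M82 arrays. The part of seed content in the fall of MAN2 was not tested. Without M82 replicate 1 the list held 6 rises and 11 falls, without IL-1_1 replicate 1 it held 1 rise and 1 fall, and without IL-1_1 replicate 4 it held 1 rise and no fall. The calls of XTH3, TBG2, PE1, MAN2, TBG3 and PMEU1 were lost in both fits and that of PME2.1 in the second (up to 0.085, 0.0917, 0.0896, 0.131, 0.0902, 0.104 and 0.0532). Leaving out M82 replicate 2, 4 or 5 also ended TBG2, replicate 3 or 5 PE1, replicate 2, 3, 5 or 6 MAN2, replicate 2, 3 or 4 PMEU1 and any of replicates 2 to 6 TBG3, and IL-1_1 replicate 3 ended PE1, MAN2 and TBG3.

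Sugar and starch genes had 5 called rises and 4 called falls among 30 probe sets (median -0.17), a called share of 30.0% against 12.2% over all probe sets. The rises include all 3 probe sets of BMY3, a beta-amylase that releases maltose from starch. The strongest read 12.78, 12.88, 12.46 and 12.51 in IL-1_1, against 9.69, 10.73 and 11.78 in M82 (lowest, median, highest), a rise of 1.83 ± 0.35 (limma adjusted p = 0.00481). The others rose by 1.63 ± 0.35 and 1.30 ± 0.31 (0.0108 and 0.0185), and no IL-1_1 array overlapped M82 at any of the 3. Hexokinase gene Hxk2, whose enzyme phosphorylates imported hexose, read 9.52, 9.39, 9.72 and 9.45 in IL-1_1, against 9.70, 10.03 and 10.13 in M82. It fell by 0.45 ± 0.10 (limma adjusted p = 0.0100), with M82 replicate 1 just under the highest IL-1_1 array. SDH fell by 0.57 ± 0.13 (limma adjusted p = 0.0127), without overlap.

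The other called members of this list were picked after their values were seen. CIF1, an inhibitor of cell wall invertase, averaged 12.07 ± 0.22 in IL-1_1 and 10.91 ± 0.58 in M82, and the hexose transporter gene HT1 11.07 ± 0.55 in IL-1_1 and 10.37 ± 0.19 in M82. The sucrose transporter gene SUT4 averaged 8.76 ± 0.20 in IL-1_1 and 9.28 ± 0.23 in M82, and the fructokinase gene FRK1 10.31 ± 0.22 in IL-1_1 and 10.85 ± 0.28 in M82. Their limma adjusted p were 0.0341, 0.0463, 0.0308 and 0.0356. A second probe set of SUT4 had a difference of -0.31 and was not called. Hxk2, SDH and the stronger pair of BMY3 probe sets were called in every leave-out fit, but Hxk2 and SDH were not called with only the IL-1_1 and M82 arrays fitted (0.0515 and 0.0532). Without M82 replicate 1 the list held 7 rises and 8 falls, and without IL-1_1 replicate 1 it held 2 rises and 3 falls, as it did without IL-1_1 replicate 4. CIF1, HT1 and FRK1 were lost in both fits, as was the weakest BMY3 probe set, and SUT4 in the second (up to 0.103, 0.149, 0.121, 0.0604 and 0.0975). CIF1 also fell out without M82 replicate 2, 3, 4 or 5, HT1 without IL-1_1 replicate 3 or any of M82 replicates 2 to 6, FRK1 without IL-1_1 replicate 2 or M82 replicate 2, 4, 5 or 6, and SUT4 without IL-1_1 replicate 2 or M82 replicate 3.

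**Figure D5:**
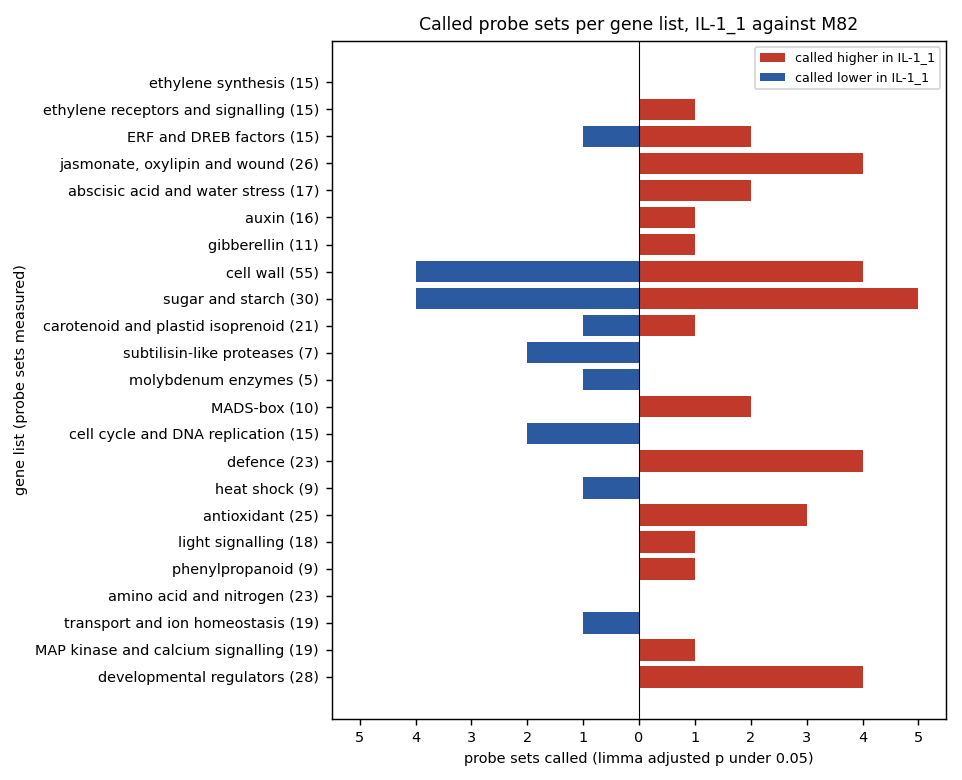
Number of probe sets called higher (red, right) and lower (blue, left) in IL-1_1 than in M82 (horizontal axis) for each gene list (vertical axis, with the number of probe sets measured). Calls reached 5 higher and 4 lower in sugar and starch, 4 and 4 in cell wall, and 4 and 0 in defence and in jasmonate, oxylipin and wound.

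In the carotenoid and plastid isoprenoid list the CCD1 pair were the only calls among 21 probe sets. Without IL-1_1 replicate 3, M82 replicate 1 or M82 replicate 6 the list held 2 rises and 1 fall. Of the genes upstream of the cleavage step, the phytoene desaturase gene PDS had a difference of -0.08, the zeta-carotene desaturase gene ZDS of 0.05 and the lycopene cyclase gene LCY1 of 0.11. Probe sets of the phytoene synthase gene Psy1 had differences of 0.54, 0.46 and -0.01 and were not called (limma adjusted p = 0.170, 0.0572 and 0.961). The second was called without M82 replicate 1 (0.0136). The subtilisin-like proteases had 2 falls among 7 probe sets, sbt4a and sbt3. sbt3 read 11.28, 10.11, 10.74 and 10.60 in IL-1_1, against 11.41, 11.44 and 11.72 in M82 (lowest, median, highest), a fall of 0.82 ± 0.16 (limma adjusted p = 0.00750). SBT1, SBT2, P69A, P69B and TMP were not called, at 0.55, -0.34, -0.03, 0.70 and -0.07. Of 5 molybdenum enzyme probe sets TAO2 alone was called, and its relatives TAO3 and AO1 had differences of 0.03 and -0.05. The counts of the subtilisin-like protease and molybdenum enzyme lists were the same whichever array was left out.

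Among developmental regulators, 4 of 28 probe sets were called higher and none lower (median 0.20). fsm1, a small MYB-like regulator of the earliest phase of fruit growth, read 12.64, 12.38, 12.42 and 13.04 in IL-1_1, against 8.64, 10.34 and 12.73 in M82 (lowest, median, highest). The line was uniform, M82 replicate 1 lay inside its range, and the change was 2.01 ± 0.59 (limma adjusted p = 0.0393). The MYB gene THM16 averaged 6.81 ± 1.70 in IL-1_1 and 4.71 ± 0.42 in M82 (0.0297), and the G-box binding factor gene GBF12 10.73 ± 0.27 in IL-1_1 and 9.89 ± 0.35 in M82 (0.0121). CLB1 rose by 0.40 ± 0.07 (limma adjusted p = 0.00432), with arrays of 11.45 to 11.70 in IL-1_1 and 11.04 to 11.28 in M82, and was called in every leave-out fit. Of 10 MADS-box probe sets, TDR8 and TDR4 were called higher, with changes of 3.03 ± 0.72 and 1.31 ± 0.37 (limma adjusted p = 0.0166 and 0.0356). TDR8 read 8.83, 8.75, 6.69 and 9.12 in IL-1_1, against 4.13, 4.81 and 8.22 in M82, so that IL-1_1 replicate 3 lay under M82 replicate 1. Without IL-1_1 replicate 1 or 4 there were 0 MADS-box calls, with TDR8 up to 0.0631 and TDR4, lost also without M82 replicate 2, 3, 4 or 5, up to 0.125, and the developmental list held 2 and 1. fsm1 and THM16 were lost in both of those fits and without M82 replicate 2, 3, 4 or 5 (up to 0.114 and 0.0967), fsm1 also without IL-1_1 replicate 3, and GBF12 without IL-1_1 replicate 4 (0.0532).

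Cell cycle genes had 2 called falls among 15 probe sets (median -0.11). PCNA, the clamp of DNA replication, read 11.53, 11.98, 11.94 and 11.10 in IL-1_1, against 12.06, 12.25 and 12.61 in M82 (lowest, median, highest), a fall of 0.67 ± 0.17 (limma adjusted p = 0.0265). CDKB1, a kinase of the passage into mitosis, averaged 11.12 ± 0.44 in IL-1_1 and 11.82 ± 0.34 in M82, a fall of 0.70 ± 0.22 (0.0493). Both were lost without IL-1_1 replicate 1 or 4 or M82 replicate 2 or 5, and CDKB1 also without IL-1_1 replicate 3 or M82 replicate 3 or 4 (up to 0.0954 and 0.174). Without IL-1_1 replicate 2, M82 replicate 1 or M82 replicate 6 there were 6 called falls in the list.

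Other lists held few calls. Without M82 replicate 1 several lists described above also grew: ERF and DREB factors to 6 rises and 1 fall, abscisic acid and water stress to 6 and 1, developmental regulators to 8 and 1, and MADS-box genes to 5 rises. In the same fit antioxidant genes had 6 rises and 2 falls, gibberellin genes 1 and 3, heat shock genes 3 falls, and MAP kinase and calcium signalling 3 and 2. HSP21, a small heat shock protein of plastids, averaged 5.80 ± 0.44 in IL-1_1 and 7.05 ± 0.63 in M82 (limma adjusted p = 0.0236), 1 of 9 heat shock probe sets. In light signalling COP1, a ubiquitin ligase that represses light responses, rose by 0.66 ± 0.18 (0.0319), 1 of 18 probe sets. THT7-1, a hydroxycinnamoyl transferase that forms wound amides, rose by 1.11 ± 0.34 (0.0437), 1 of 9 phenylpropanoid probe sets, and the aquaporin gene Aqp2 fell by 0.39 ± 0.11 (0.0331), 1 of 19 transport probe sets. Each of these 4 lost its call without IL-1_1 replicate 1 or 4, or both, and without M82 replicates 2 and 4 (adjusted p up to 0.0857, 0.104, 0.145 and 0.0953). M82 replicate 3 also ended COP1, THT7-1 and Aqp2, M82 replicate 5 COP1 and THT7-1, IL-1_1 replicate 3 THT7-1 and Aqp2, and IL-1_1 replicate 2 THT7-1. In the antioxidant list CAT2, TPX2 and GST-T4 rose by 0.24, 0.47 and 0.31 (limma adjusted p = 0.041, 0.0360 and 0.0340) among 25 probe sets, and without IL-1_1 replicate 4 or M82 replicate 2, 3 or 4 there were 0 calls (up to 0.0910, 0.119 and 0.0782). Of 23 amino acid and nitrogen probe sets, 18 changes were positive (median 0.30) and none was called, but 6 rises and 1 fall were called without M82 replicate 1, 4 rises and 1 fall without IL-1_1 replicate 2, 2 rises without IL-1_1 replicate 3 and 1 rise without M82 replicate 6. The closest were the proline transporter gene ProT1 at 0.95 (limma adjusted p = 0.0520) and the proline dehydrogenase gene PDH at -1.10 (0.0603).

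IL-1_1 was also set against the mean of IL-1_4 and IL-2_3, a comparison that shares the IL-1_1 arrays with the one above. There 1924 probe sets were called (19.0%), of which 927 (9.18%) were higher in IL-1_1 and 997 (9.87%) lower. All 42 deep falls and all 7 wide-gap rises were called in the same direction. LOC543740 fell by 7.41 on the log2 scale, sbt4a fell by 5.57, TAO2 fell by 2.43 and CCD1B fell by 2.40, and CCD1A, loxC and CEVI57 rose by 1.79, 4.28 and 4.94.

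Some genes called against M82 were not called against the other lines. TDR4 differed from the mean of IL-1_4 and IL-2_3 by -0.00 (limma adjusted p = 0.996), CAT2 by 0.04 (0.676), twi1 by 0.83 (0.444) and CHI14 by 0.48 (0.127). For MAN2, PME2.1, PE1 and sbt3 the differences from the other lines were -1.33, -0.49, -0.28 and -0.46 and were not called (0.106, 0.120, 0.0639 and 0.0548). For fsm1, TAS14 and THM16 they were 1.43, 1.54 and 1.61 and missed the call (0.0866, 0.0536 and 0.0535). Genes called in both comparisons included PTI4, ERF4, EIL3, BMY3, tXET-B2, XTH3, JA2, AREB1, Ve1, Ve2, TBN1, RNALE, IAA7 and TDR8 among the rises. PMM, PP2Ac2, Hxk2, SDH, PCNA, CDKB1, HSP21 and ERF-H1 were among the falls called in both. The carpel identity gene AG1, not called against M82 at 0.65 (0.114), was higher in IL-1_1 than in the other lines by 1.22 (limma adjusted p = 0.00762). Without IL-1_1 replicate 1 this comparison gave 862 calls and without IL-1_1 replicate 4 it gave 833.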

How the data were processed

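RNA from carpels 7 days after pollination was biotin-labelled and hybridised to Affymetrix tomato arrays, 1 sample per array, per the labels. The deposited log2 intensities are the authors' processed probe set values. They were made with affy, per the submitters' processing notes; no source used here gives its version or settings. Base 2 is inferred from the range of the values, since no label names the log base. No detection calls were used, and the number of arrays limits the precision.

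The values were fitted as deposited with limma 3.58.1 in R 4.3.3, with 1 mean per group over all 17 arrays, no covariate and two-sided tests. P-values were adjusted by Benjamini-Hochberg over 10101 probe sets, leaving out 108 control probe sets, and the threshold was 0.05. The fit was tested on simulated data. Symbols come from a dated platform annotation. Genes named are the 15 largest called rises and 15 largest falls with a symbol and no overlap with M82, the 5 largest each way without a symbol, up to 5 called members of each of 30 gene lists by smallest p (or 2 members where none was called), and further probe sets of those genes. Members and lists were chosen with earlier results of these data known. Alternatives covered scaling, dim probe sets, array weights, a variance trend, the arrays fitted and each IL-1_1 or M82 array left out. The chromosome of the called probe sets was not analysed here.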

Additional observations from a re-analysis of the deposited data

Results flagged for a closer look

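A sample far from the others of its group was found at 2 of 150 group-wise checks of the named probe sets, where chance alone gives about 1 in 20. TDR8, the MADS-box gene, read 6.69 in IL-1_1 replicate 3, and the other IL-1_1 arrays read 8.75 to 9.12. Les.2320.1.A1_at read 5.27 in IL-1_1 replicate 4, and the other IL-1_1 arrays read 4.97 to 5.02, all far below M82.

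Of the 75 named probe sets called against M82, IL-1_1 also differed at 63 from the mean of the other introgression lines in a test of that difference (limma, adjusted p under 0.05). Over all probe sets 19.0% were called in that test. The named probe sets were mostly picked by their change or p against M82. Both comparisons use the same IL-1_1 arrays, so the 63 are no independent support. Of the 63, 38 were higher in IL-1_1. The log2 difference was 4.94, 4.28, 4.18, 3.87, 4.22 and 3.46 for CEVI57, loxC, LesAffx.19291.1.S1_at, Les.4317.1.S1_at, LesAffx.70768.1.S1_at and Les.5789.1.S1_at. For LOC778362 (Les.2001.1.S1_at), Les.2084.1.S1_at, TDR8, LOC778362 (Les.2001.1.S1_s_at), PTI4 and ERF4 it was 3.40, 2.81, 2.23, 2.93, 2.67 and 2.71. tXET-B2, JA2, XTH3, LOC544264, BMY3 (Les.1401.2.S1_at) and CCD1A differed by 2.23, 2.2, 2.0, 1.62, 1.76 and 1.79. The values of TBN1, RNALE, BMY3 (Les.1401.3.S1_at), LOC543856, Ve2 and EIL3 were 2.11, 1.92, 1.51, 1.54, 1.29 and 1.56. Differences of 0.96, 1.23, 1.03, 1.06, 1.27 and 1.02 were found for gtsatom, BMY3 (Les.1401.1.S1_at), AREB1, Ve1, THT7-1 and IAA7. The log2 difference was 1.04, 0.76, 0.71, 0.61, 0.66 and 0.60 for GBF12, GRAS6, MAPKKKalpha, COP1, TBG2 and ALPHA-DOX2. For TPX2 and CLB1 it was 0.46 and 0.44. The other 25 were lower in IL-1_1. The log2 difference was -0.33, -0.42, -0.49, -0.63, -0.64 and -0.62 for Aqp2, Hxk2, SDH, PMM (Les.500.1.S1_s_at), PP2Ac2 and LOC543681. For PCNA, CDKB1, LOC778238, PMM (Les.500.2.A1_s_at), LOC543715 and PMM (Les.5106.1.S1_at) it was -0.74, -0.77, -0.48, -0.71, -0.78 and -0.89. yfe37, HSP21, ERF-H1, formin-I2I, CCD1B and TAO2 differed by -1.38, -1.24, -1.30, -2.0, -2.40 and -2.43. The values of LesAffx.67882.1.S1_at, sbt4a, Les.2320.1.A1_at, Les.745.1.A1_at, Les.4203.1.A1_at and Les.3091.1.A1_at were -5.52, -5.57, -5.54, -5.84, -5.83 and -5.93. The difference was -7.41 for LOC543740.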

How the results depend on the processing

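Calls numbered 377 (193 higher, 184 lower) with only the IL-1_1 and M82 arrays fitted; with array weights 2315, 1231 and 1084. Without the 2 arrays of the highest actin 3-prime to 5-prime difference (M82 replicate 5 and IL-1_4 replicate 1), an alternative chosen after seeing the data, the counts were 555, 264 and 291. Leaving out 1 IL-1_1 or M82 array moved the total between 421 and 3079, rises between 195 and 1561 and falls between 226 and 1518. In the same fits the total against the other lines ran from 833 to 2687, rises from 408 to 1288 and falls from 425 to 1399. The 2687 came without M82 replicate 1, which is outside that contrast. Arrays of IL-1_4 and IL-2_3 were not left out in turn, so these ranges do not cover them. Counts without overlap, 307 above and 431 below with all arrays, cannot fall when an array is left out. They ran from 313 to 949 above and from 454 to 876 below. Those with a gap over 1, which cannot fall either when an array is left out, ran from 7 to 21 and from 42 to 47. Scaling could lower such counts. Without overlap there were 284 above and 520 below with median centring, and 289 and 480 with quantile normalization. With a gap over 1 these were 7 and 42, and 7 and 40. Called probe sets numbered 607 higher and 775 lower with median centring, or 43.9% higher against 52.4%. Of the 75 named and called probe sets none changed direction under any of the 18 alternatives that tested it, the filter on dim probe sets testing 52; 38 kept their call with only the IL-1_1 and M82 arrays, and 40 without IL-1_1 replicate 1 as well as without replicate 4.

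The groups share replicate numbers. Deviations of same-numbered IL-1_1 and M82 arrays correlated at 0.61, 0.59, -0.17 and -0.25. Not every pair was over 0.1, so the numbers were not taken to pair the samples. With the number as a replicate block 815 probe sets were called, 382 higher and 433 lower, and 21 of the 75 named calls were lost. The chromosome comparison was not run.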
